A study of Homo sapiens with 4 samples.

Results

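The heterogeneous nuclear ribonucleoproteins (hnRNPs) are RNA-binding proteins that coat nascent transcripts in the nucleus and take part in splicing, nuclear retention, export and stability of mRNA. Many of them also act on their own pre-mRNA, where splicing can be shifted to isoforms that carry a premature stop codon and are degraded by nonsense-mediated decay, or that keep an intron and stay in the nucleus. YTHDC1, the protein pulled down in this RIP-seq experiment, is a nuclear reader of N6-methyladenosine (m6A) that is known for roles in splicing and export. The transcripts described here were chosen by gene symbol, as those with a symbol that begins with HNRNP and those of PTBP1, PTBP2 and PTBP3, without transcripts annotated as pseudogenes. They were 209 of the 75165 listed transcripts and belonged to 26 of the 20298 listed genes. Their mean normalized counts summed to 164935, or 0.494% of the table.

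All libraries came from MDA-MB-231, a triple negative breast cancer cell line, transduced with a lentiviral vector for 3x Flag-tagged YTHDC1 at a multiplicity of infection of 4. Selection with puromycin (2 μg/ml) lasted 4 days, and RNA and protein were then crosslinked by 3 UV exposures of 120000 μJ/cm2. There were 2 libraries of the anti-Flag IP from nuclear lysate and 2 of input RNA from the same kind of lysate, which the series describes as total RNA. The cells therefore overexpressed YTHDC1 in both groups, the input was nuclear although it is called total, and no control IgG pull-down enters the analysis.

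The value used throughout is the mean normalized count, which the authors calculated for each transcript over all 4 libraries together. It mixes the IP with the input and has no value per library, so the depth and the replicate spread are unknown. No interval or test can be drawn from it. The authors' own fold changes, with errors and p-values, were not used, and the IP and the input are not compared. The count is not divided by transcript length. Shares are therefore shares of normalized counts and not of molecules, and totals are not ranked between genes. Isoforms of a gene can also differ in length. The most abundant transcript of a gene here means the one with the highest normalized count. The reads were divided among overlapping isoforms by the authors' statistical estimate before these means were taken, so the value of 1 isoform can rest on few reads of its own.

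The markers of a mesenchymal breast cancer line were listed, with summed mean normalized counts of 80785 for VIM, 63189 for AXL, 28459 for MSN, 14306 for CD44 and 7624 for CAV1. Of the genes taken to be lacking in such a line, ESR1 and PGR had no listed transcript, CDH1 was at 10.0 and EPCAM at 78.3. KRT19 was also taken to be lacking, but it was at 7521, so this did not hold for KRT19. Of the markers of other cells, COL1A1 was at 705, PECAM1 at 102 and the leukocyte gene PTPRC at 3.81. The 55488 normalized counts of YTHDC1 fell to 99.6% on protein-coding transcripts, and its vector-derived and endogenous RNA cannot be told apart in this table.

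Most normalized counts of the hnRNP genes were assigned to protein-coding transcripts. Of the summed counts of the 26 genes, 79.8% fell on 122 protein-coding transcripts, 15.4% on 23 transcripts annotated for nonsense-mediated decay, 2.72% on 20 processed transcripts, a class of spliced transcripts with no annotated reading frame, and 2.04% on 44 transcripts with a retained intron. Over all 14050 genes annotated as protein-coding, the corresponding shares were 87.6%, 4.22%, 4.02% and 4.16%. The hnRNP genes thus held a larger share in decay transcripts and a smaller share in retained-intron transcripts than the genes in general. The decay share rested on a pair of transcripts, HNRNPU-228 and HNRNPUL2-BSCL2-201, which made up 70.6% of it. Without these, a setting chosen after seeing the data, the decay share was 5.07%. The share of hnRNP counts outside protein-coding transcripts was then 10.4%, against 20.2% with them. Over all protein-coding genes this share was 12.4% with no transcript left out, so the 12.4% compares with the 20.2% only. By gene, the median share outside protein-coding transcripts was 9.16% (quartiles 1.47% and 29.4%), against 5.42% (quartiles 0% and 26.7%) over all protein-coding genes.

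**Figure D1:**
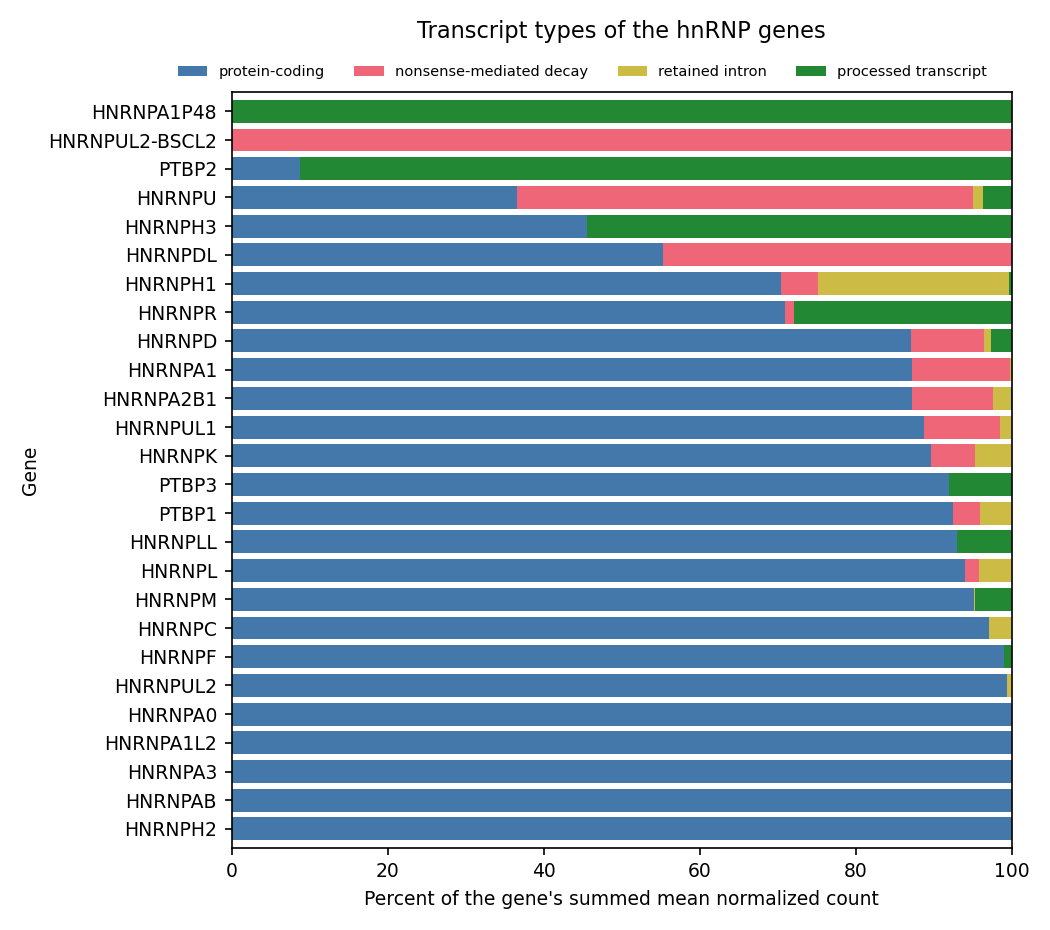
Share of each hnRNP gene's summed mean normalized count by annotated transcript type, as stacked bars from 0 to 100 percent. HNRNPUL2-BSCL2 (100%), HNRNPU (58.4%) and HNRNPDL (44.7%) hold the largest blocks of nonsense-mediated-decay counts, HNRNPH1 has the widest retained-intron block (24.4%), and 5 genes are protein-coding throughout.

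HNRNPU encodes a large scaffold protein of the nuclear matrix that binds RNA and chromatin. The gene (ENSG00000153187.20) lies at chr1:244850297-244864543 of GRCh38 in RefSeq. It had 13 listed transcripts with a summed mean normalized count of 20618. The transcript with the highest count was not protein-coding. It was HNRNPU-228 (ENST00000640306.1), annotated for nonsense-mediated decay, with a mean normalized count of 11996, or 58.2% of the gene's counts. The protein-coding HNRNPU-201 followed with 7069, or 34.3%, so the count of HNRNPU-228 was 1.70 times as high, with transcript length not allowed for. The other 2 decay transcripts of the gene were at 31.2 and 15.9 normalized counts, so the class consisted almost wholly of HNRNPU-228. A processed transcript, HNRNPU-227, had 760 normalized counts, and the 6 retained-intron transcripts ranged from 7.77 to 138. The decay transcripts together reached 1.60 times the protein-coding ones, and HNRNPU was the 1 hnRNP gene of 11 holding both classes in which the decay sum was the larger. Among all genes with both classes, 13.9% had a decay sum above the coding sum, and 9.10% of those with a total of at least 1000.

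The readthrough gene HNRNPUL2-BSCL2 had 1 listed transcript, HNRNPUL2-BSCL2-201, which is annotated for nonsense-mediated decay and had a mean normalized count of 5932. The authors' annotation calls this gene protein-coding, whereas RefSeq calls it a lncRNA. HNRNPUL2, a paralog of HNRNPU, had a sum of 1795, of which HNRNPUL2-201 made up 99.3%. BSCL2, which encodes seipin, had a sum of 386. In RefSeq (GRCh38) the readthrough gene lies at chr11:62690262-62727384, on the same strand as HNRNPUL2 at chr11:62712630-62727457, and the genes overlap over 14755 bases. The readthrough gene also overlaps BSCL2, on the same strand, over 19276 bases. Reads from the shared stretches could have been counted for either gene of a pair, and their division between the genes was not tested. A like arrangement holds for HNRNPH2, which lies wholly within the readthrough gene RPL36A-HNRNPH2 on the same strand. HNRNPH2 had 1921 normalized counts and the readthrough gene 736. HNRNPUL1, the other HNRNPU paralog, was led by the protein-coding HNRNPUL1-220 with 16336 normalized counts, or 74.4% of the gene, while its decay transcript HNRNPUL1-208 had 2109, or 9.60%.

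Decay transcripts were listed in 12 of the 26 genes, beside 30.1% of all protein-coding genes and 13 of 26 genes of related RNA-binding proteins, and in 12 of the 21 with a total of at least 1000, beside 36.5%. After HNRNPUL2-BSCL2 and HNRNPU, the share of the gene in decay transcripts was highest in HNRNPDL, which encodes a relative of hnRNP D (AUF1), a protein that binds AU-rich elements. HNRNPDL (chr4:82422564-82430462) had 7 transcripts, 4 of them annotated for decay. The protein-coding HNRNPDL-206 was highest with 1393 normalized counts, followed by the decay transcripts HNRNPDL-203 with 613 and HNRNPDL-202 with 452. Together the decay class made up 44.7% of the gene and reached 0.809 times the coding sum. In HNRNPD, the decay transcript HNRNPD-211 was at 227 normalized counts, 9.43% of the gene, and the decay class was thus a smaller part there than in its relative.

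Single decay transcripts of intermediate size were found in genes of the A/B group, which encode the core proteins of hnRNP particles. HNRNPA1-205 had 1638 normalized counts, 12.6% of HNRNPA1, and ranked below HNRNPA1-208, HNRNPA1-201 and HNRNPA1-210, which are protein-coding and had 5098, 2668 and 1681. HNRNPA2B1-203 had 808, 10.5% of HNRNPA2B1, against 6713 for the protein-coding HNRNPA2B1-202. In contrast, HNRNPA3 and HNRNPAB had 4 listed transcripts each and HNRNPA0 and HNRNPA1L2 had 1 each, all protein-coding. The decay share was 5.59% in HNRNPK, which binds C-rich sequences, 3.45% in PTBP1 and 1.77% in HNRNPL, the last 2 being splicing regulators with known decay isoforms of their own. HNRNPC, HNRNPM and HNRNPF had no listed decay transcript. Over the 11 genes with both classes, the decay sum was a median of 0.108 times the coding sum (quartiles 0.0498 and 0.132), against 0.161 (quartiles 0.0402 and 0.503) over 3966 genes and 0.0769 (quartiles 0.0173 and 0.280) over the 1924 of these with a total of at least 1000.

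**Figure D2:**
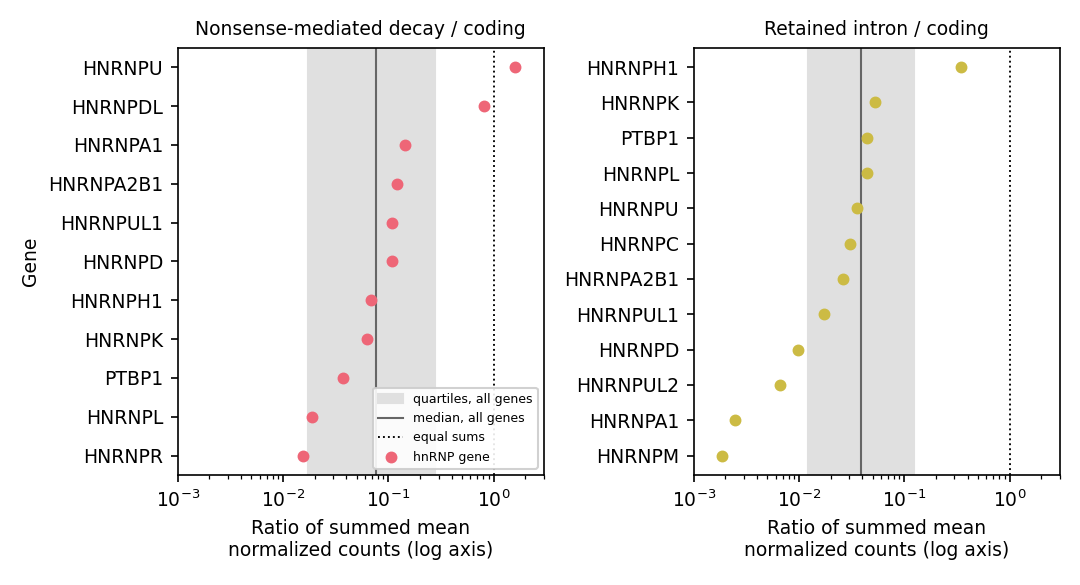
Ratio of the summed mean normalized count of nonsense-mediated-decay (left) or retained-intron (right) transcripts to that of protein-coding transcripts of the same gene, on log axes, with 1 point per hnRNP gene. The grey band and line are the quartiles and median over all protein-coding genes with a total of at least 1000. Only HNRNPU lies above equality on the left, and HNRNPH1, at 0.347, has the highest ratio on the right.

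Retained-intron transcripts had low counts. They made up 21.1% of the hnRNP transcripts, near the 17.2% over all protein-coding genes and the 20.9% over those with a total of at least 1000, and held 2.04% of the hnRNP counts. Their median was 28.0 normalized counts, not divided by transcript length, against 164 for the protein-coding and 87.8 for the decay transcripts. Over all protein-coding genes the medians were 22.6, 91.0 and 42.1. No retained-intron transcript exceeded the most abundant protein-coding transcript of its gene, and the highest reached 44.1% of it. In none of 12 genes with both classes was the retained-intron sum above the coding sum, where 6.92% of 5243 genes had it so, and 3.52% of those with a total of at least 1000. The median ratio was 0.0285 (quartiles 0.00904 and 0.0445), against 0.0711 (quartiles 0.0228 and 0.231) over all genes. Over those with a total of at least 1000 it was 0.0390 (quartiles 0.0122 and 0.125). The hnRNP median thus lay between the quartiles of either background.

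HNRNPH1 was the exception among these genes. It encodes a protein that binds G-rich sequences and regulates splicing, lies at chr5:179614178-179634784, and had more listed transcripts than any other hnRNP gene, with 34 against a median of 7. Of these, 16 were protein-coding, 13 retained-intron, 4 decay and 1 a processed transcript. The retained-intron transcripts held 24.4% of its 4137 normalized counts and 30.0% of all retained-intron counts of the hnRNP genes. HNRNPH1-243, with a retained intron, had 523 normalized counts and ranked second in the gene after the protein-coding HNRNPH1-239, which had 1186. The next retained-intron transcripts were HNRNPH1-240 with 153 and HNRNPH1-223 with 107, and the lowest had 4.11. Counts were thus spread over many isoforms, the first holding 28.7% of the gene. RefSeq places a lncRNA, LOC128966623, over the whole gene on the opposite strand. It had no listed row. The libraries were made with a stranded kit, but whether the counting used strand is not given in the sources used here, and a part of such an RNA in the counts of HNRNPH1 was not tested.

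Its close relatives differed in isoform makeup. HNRNPH2, on the X chromosome, had 1 listed transcript, and HNRNPF had 96.1% of its 10365 normalized counts on HNRNPF-201. HNRNPH3 had no listed decay or retained-intron transcript, but 6 processed transcripts held 54.4% of its 1197 normalized counts. Of these, HNRNPH3-204 had 362 and HNRNPH3-209 had 227, while the most abundant transcript, HNRNPH3-202 with 456, was protein-coding. On the opposite strand, HNRNPH3 overlaps RUFY2 over 2085 bases and PBLD over 1236 bases in RefSeq. RUFY2 had a sum of 392 normalized counts and PBLD of 18.8, and a part of their RNA in the counts of HNRNPH3 was not tested. The paralogs HNRNPH1, HNRNPH2, HNRNPH3 and HNRNPF have similar coding sequences, and how reads were divided between them was not tested.

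**Figure D3:**
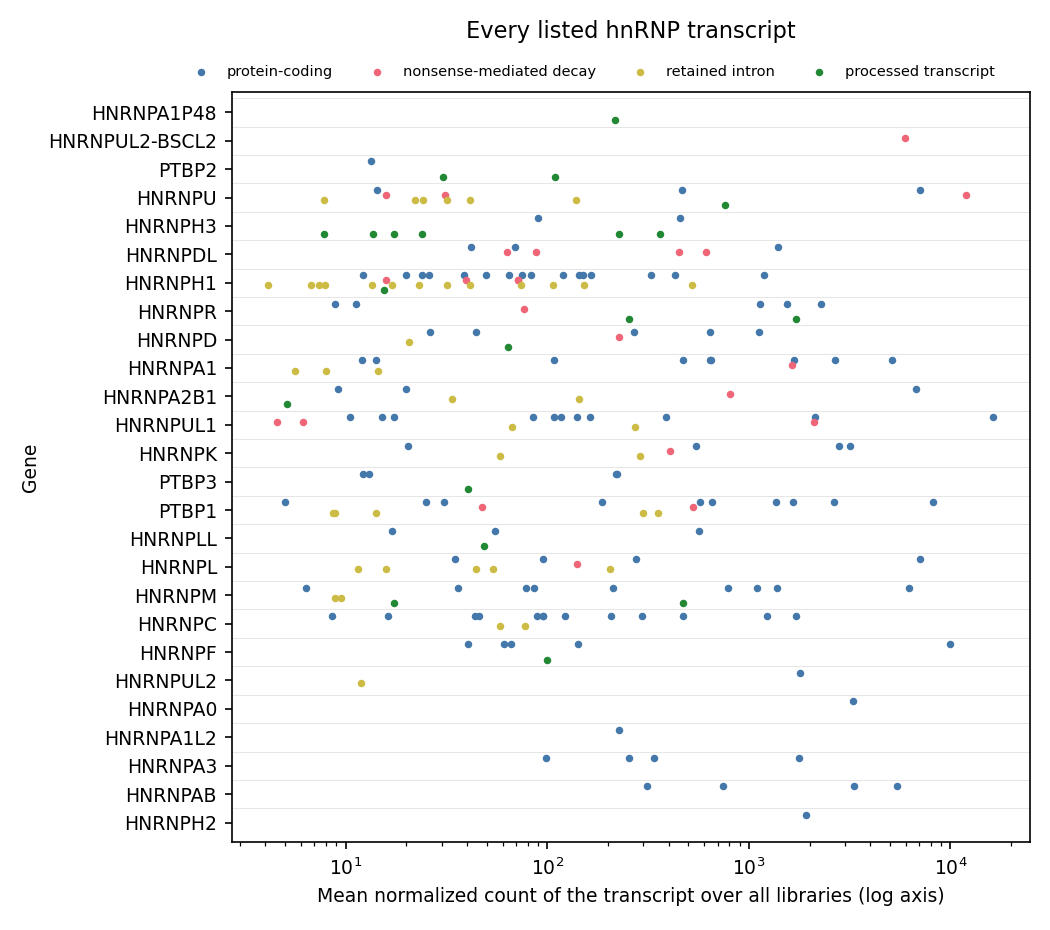
Mean normalized count over all libraries of every listed hnRNP transcript, on a log axis, by gene and coloured by transcript type. HNRNPU-228 (11996) stands to the right of every protein-coding transcript of HNRNPU, whereas the retained-intron points of all genes lie at or below 523.

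After HNRNPH1-243, the retained-intron transcripts with the highest normalized counts were PTBP1-210 with 356, PTBP1-217 with 297, HNRNPK-203 with 287 and HNRNPUL1-210 with 274. Each made up less than 4% of its gene. PTBP1, the polypyrimidine tract binding protein that represses many alternative exons, held 20.3% of the retained-intron counts of the hnRNP genes. Yet these were 4.12% of its 16621 normalized counts, of which the protein-coding PTBP1-203 alone held 49.5%. In 9 genes both decay and retained-intron transcripts were listed. The decay sum was the larger in 6 of them and the retained-intron sum in 3, which were HNRNPH1, HNRNPL and PTBP1. Over all genes with both, the decay sum was the larger in 58.1%, and in 55.5% of those with a total of at least 1000.

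PTBP2, the neuronal paralog, had a summed mean normalized count of 154, and its most abundant transcript was the processed transcript PTBP2-207 with 110. A second processed transcript, PTBP2-205, was at 30.5, and the 1 listed protein-coding transcript, PTBP2-211, was at 13.4, so 8.71% of the gene was protein-coding. PTBP3 had a sum of 508, of which 92.0% was protein-coding, close to the 92.4% of PTBP1. It was divided almost evenly between PTBP3-205 and PTBP3-203, whose counts differed by a factor of 1.01. In HNRNPR, which encodes a protein related to SYNCRIP, the processed transcript HNRNPR-208 had 1709 normalized counts, 24.3% of the gene, second to the protein-coding HNRNPR-202 with 2270. HNRNPR-208 made up 38.0% of all processed-transcript counts of the hnRNP genes. In 2 of 11 genes with both classes, PTBP2 and HNRNPH3, the processed-transcript sum was above the coding sum, beside 8.17% of all such genes. Of the 8 with a total of at least 1000 this held for HNRNPH3 alone, beside 4.38%.

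The transcript with the highest count was not protein-coding in 4 of the 26 genes, which were HNRNPU, HNRNPUL2-BSCL2, PTBP2 and HNRNPA1P48. This was so for 12.9% of all protein-coding genes. With a total of at least 1000 there were 2 such genes of 21, beside 8.37%. HNRNPA1P48, a gene with a pseudogene symbol that is annotated in the table as protein-coding and is called HNRNPA1L3 in the table of gene names, had 1 processed transcript with 216 normalized counts. More than 50% of the counts lay outside protein-coding transcripts in these genes and in HNRNPH3, 5 in all, beside 12.7% of all protein-coding genes. With a total of at least 1000 they were 3 of 21 genes, beside 8.00%. At the other end, HNRNPA0, HNRNPA1L2, HNRNPA3, HNRNPAB and HNRNPH2 were protein-coding throughout, 5 of 26 beside 33.8% of all protein-coding genes. With a total of at least 1000 they were 4 of 21, beside 19.5%. HNRNPUL2 and HNRNPF followed with 0.662% and 0.964% outside protein-coding transcripts, and HNRNPC, whose product binds uridine tracts, with 2.97%. In HNRNPC the coding counts were divided among 13 transcripts, led by HNRNPC-229 with 1720 and HNRNPC-227 with 1233. HNRNPM, HNRNPL and PTBP1 held 4.89%, 5.95% and 7.57%. In the 21 genes with several listed transcripts, the first made up a median of 55.5% of the gene, against 59.7% over all protein-coding genes with several.

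Other RNA-binding proteins of nuclear particles, 25 symbols such as SYNCRIP, MATR3 and PCBP1, gave a frame for these values. They had 26 gene identifiers, since MATR3 has 2, and 237 listed transcripts, with decay transcripts listed for 13 of the 26. Outside protein-coding transcripts lay 15.9% of their summed counts, with a median of 11.4% by gene. Decay transcripts held 3.64%, retained-intron transcripts 3.61% and processed transcripts 8.66%. The most abundant transcript was not protein-coding in 1 of these genes, TARDBP, and in none did more than 50% of the counts lie outside protein-coding transcripts. The groups could not be tested against each other, as each is 1 set of means without replicates.

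**Figure D4:**
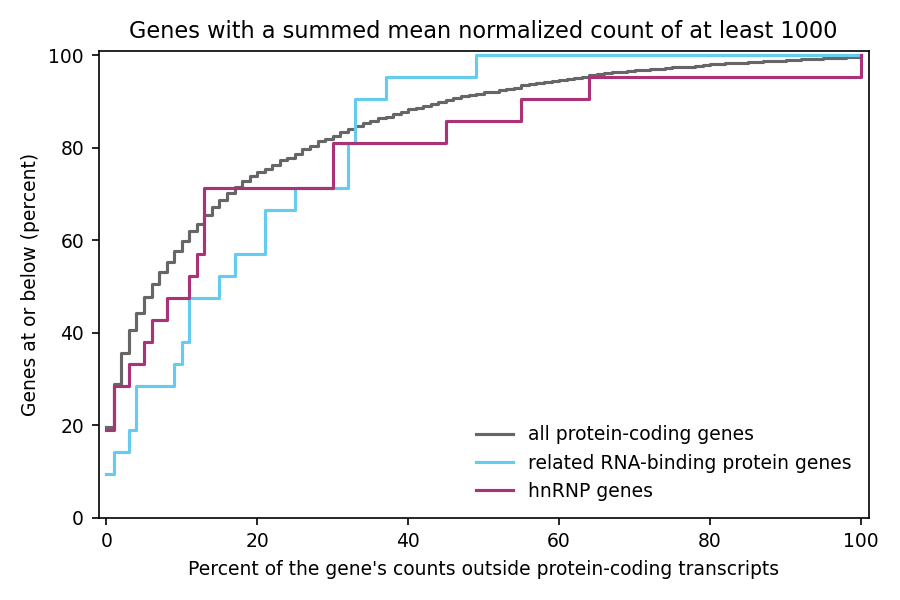
Cumulative share of genes by the percent of their counts outside protein-coding transcripts, read at whole percents, for genes with a summed mean normalized count of at least 1000: 21 hnRNP genes, 21 related identifiers and 5314 protein-coding genes. The hnRNP line reaches 85.7% of genes at 50 percent, against 92.0% for all genes and 100% for the related genes.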

How the data were processed

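RIP-seq libraries of 2 Flag-YTHDC1 IP and 2 input samples were grouped by their labels. The authors mapped reads with STAR (version 2.7.2b) to a GENCODE v33 transcriptome, estimated transcript reads with RSEM (version 1.2.31), dropped transcripts that did not reach 5 reads in 50% of the samples, and applied RUVSeq and DESeq2. The versions are those of the submitters' processing notes. The signal value in the deposited table is the authors' mean normalized count over all libraries. The table's other numeric columns, the authors' own fold change with its error and p-values, were not used. The planned test of IP against input needed values per library, which the table does not hold, and was not run. Depth per library is unknown.

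Counts were summed by gene identifier and transcript type as annotated in the table, with python 3.11.15 and pandas 2.3.3, and the sums were tested on simulated data. Of the 26 gene identifiers, 26 matched the table of gene names and RefSeq (GRCh38.p14), the source of the coordinates. Named genes were those with the highest and lowest shares outside protein-coding transcripts among genes with a sum of at least 1000. Genes led by another type were also named, as were the 5 decay and retained-intron transcripts with the highest counts. Others were named after their values were seen. Members and lists were chosen with earlier results of these data known. Alternatives were minimum counts of 10 and 100, other weightings of genes and other class definitions.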

Additional observations from a re-analysis of the deposited data

How the results depend on the processing

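The share of hnRNP counts outside protein-coding transcripts was 20.2%. It was 20.1% and 19.5% with minimum mean normalized counts of 10 and 100, 21.5% without HNRNPUL1, whose counts, not divided by length, have the largest weight in the sum, 17.1% over genes with a coding hnRNP symbol, and 9.16% as the median over genes. Without HNRNPU-228 it was 13.9%, and 10.4% without HNRNPUL2-BSCL2-201 as well, settings chosen after seeing the data. The median ratio of retained-intron to coding sums was 0.0285, and was 0.0307 and 0.0281 with minimum counts of 10 and 100 and 0.0205 for the largest transcript of each class. The median ratio of decay to coding sums was 0.108, and was 0.112 with a minimum count of 100 and 0.128 for the largest transcript of each class. The 5 genes with more than 50% of their counts outside protein-coding transcripts became 3 when decay transcripts were counted as coding, and 3 among genes with at least 2 transcripts. The 4 genes led by another type became 3 when the lead had to be at least 2-fold, as HNRNPU led by 1.70-fold. Of the 3, PTBP2 led by 3.60-fold, and HNRNPUL2-BSCL2 and HNRNPA1P48 have 1 listed transcript and no lead to measure. No paired analysis was possible because the table holds no value per library, and no library could be left out for the same reason.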

Other observations

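The 24 pseudogene rows with hnRNP symbols that were set aside summed to 1322 normalized counts. Of these, 11 were named for HNRNPA1 and summed to 653, which is 5.02% of the HNRNPA1 total, and HNRNPA1P10 was the highest with 416. The 3 named for HNRNPC summed to 214, or 4.67% of HNRNPC, and the 3 named for HNRNPK to 162, or 2.23% of HNRNPK. Exchange of reads between such copies and their parent genes was not tested. Of 32 RefSeq genes with a symbol of this kind that are not pseudogenes, 26 were matched to a listed gene by symbol or gene identifier. The 6 not matched were HNRNPCL1, HNRNPCL2, HNRNPCL3, HNRNPCL4, HNRNPD-DT and HNRNPK-AS1, and other names for these were not searched.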
